A study of Canis lupus familiaris with 10 samples.

Results

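The regions described here are 832 stretches of chromatin in the canine B-cell lymphoma cell line 17-71 that held a strong accessibility peak in both libraries treated with the PRMT5 inhibitor C220 and in none of the control libraries. They were chosen by the measurement itself. In each of the 5 libraries of 17-71 the 20000 called peaks of largest fold enrichment were kept, kept peaks that touched or overlapped were merged into 31534 regions, and a region was taken where both C220 libraries and no control library had a kept peak. The 832 regions are 2.64% of the merged regions and cover 0.966 Mb of the dog genome CanFam3.1. The mirror set, with a kept peak in all 3 control libraries and in neither C220 library, held 875 regions or 2.77%, and 11020 regions had a kept peak in all 5 libraries.

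17-71 and CLBL-1 are cell lines grown from canine B-cell lymphoma, each a single line, so the libraries of a line do not stand for different dogs. 17-71 cells were harvested on day 4, as controls in the 3 libraries B1, B2 and B3 and exposed to 100 nM C220 in the 2 libraries B4 and B6. CLBL-1 cells were harvested on day 2, with C2 and C3 as the 2 controls and 100 nM C220 given in the 3 libraries C4, C5 and C6. The sample labels call the agent PR220 and give no mutation or other treatment for either line. The comparison asks where chromatin accessibility was higher with PRMT5 inhibited.

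PRMT5 is an enzyme that places symmetric dimethyl marks on arginine residues of histones and of many other proteins, among them splicing factors. Its histone marks are known mainly for accompanying gene silencing. ATAC-seq measures open chromatin with a transposase that inserts sequencing adapters where DNA is not wrapped in nucleosomes, so that active promoters, enhancers and other regulatory elements appear as peaks of sequenced fragments. A peak's fold enrichment is the fragment pileup over the local background, averaged over the peak, and its −log10 p says how far that pileup stands above the background by the authors' peak caller. A narrow call over the summit of a site and a wide call over the same site with its flanks can therefore differ in fold while lying over the same DNA.

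The lists differed in length and in strength, which bears on every value. B1 had 44378 peaks, B2 had 33358 and B3 had 30943, whereas B4 had 22076 and B6 had 27646, so the 20000 kept peaks were 45.1% of the list in B1 but 90.6% in B4. B1 and B4 stood apart from the other libraries. The fold at rank 20000 was 4.20 in B1, above the 3.29 of B2, the 3.31 of B3, the 3.17 of B4 and the 3.24 of B6. B4 had the lowest median −log10 p of all peaks, 8.07, and the narrowest peaks, with a median of 714 bp against 872 to 990 bp in the other libraries of the line. Total read numbers are not part of the peak lists, so the depth behind a peak is unknown and a region without a call may still be accessible. Since the fold of these libraries chose the regions, the values in 17-71 are a description and carry no test.

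Most of the 832 regions were also called in the control libraries, below rank 20000. A peak of any rank was present in at least 1 control library at 795 regions (95.6%) and in all 3 control libraries at 567 regions (68.15%). Another 140 regions had a peak in 2 control libraries and 88 in 1, which leaves 37 regions (4.45%) with no control peak at all. Among all 31534 merged regions, most of which had a kept control peak, 75.8% were called in all 3 control libraries and 3.35% in none. By library, 767 of the gained regions were called in B1 (92.2%, against 93.9% of all merged regions), 684 in B2 (82.2% against 84.7%) and 618 in B3 (74.3% against 82.2%). Without B1, 724 of the 832 regions still had a peak in B2 or B3. The name gained thus holds for the rank of a peak and, at 795 of the 832 regions, not for its presence. A control peak with a −log10 p of at least 10 was present at 447 regions. Of the gained regions called in a library, 57.9% reached that value in B1, 35.5% in B2 and 33.2% in B3, and 21.2% in B4 and 32.8% in B6. Of all merged regions called in the same libraries 74.4%, 57.6% and 55.2% reached it in B1, B2 and B3, and 37.7% and 44.1% in B4 and B6.

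**Figure D1:**
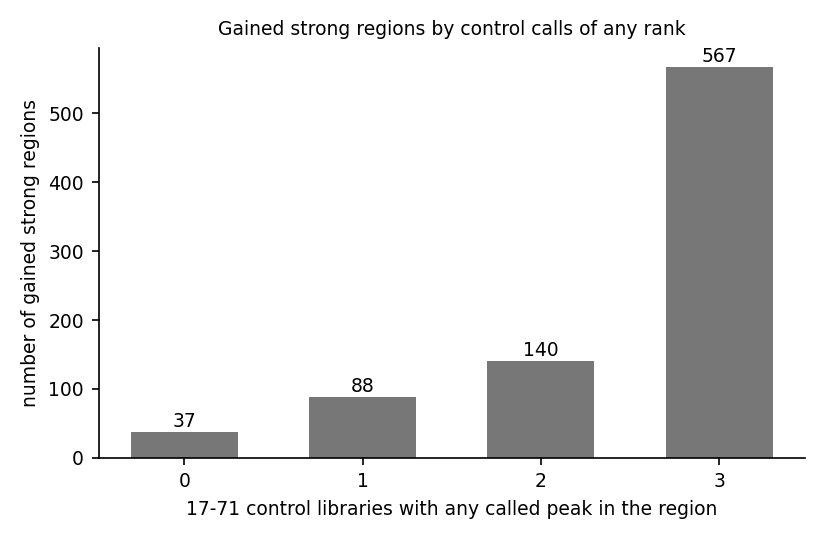
Number of gained strong regions of 17-71 (vertical axis) by how many of the 3 control libraries had a called peak of any rank in the region (horizontal axis). Bars are counts of regions, and the bar for all 3 control libraries, 567, is far above the bar for none, 37.

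The 875 lost regions had no such symmetry with the gained ones. B4 had a peak of any rank at 23 of the lost regions (2.63%, against 64.6% of all merged regions) and B6 at 259 (29.6% against 76.1%). The rule for lost regions excludes kept C220 peaks, whereas many merged regions hold one. The shorter C220 lists leave less room below rank 20000, namely 2076 peaks in B4 against 24378 in B1, and the part of list length in this asymmetry was not tested.

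At the gained regions the fold was modest in every library. The median fold of the strongest peak was 3.74 in B4, with quartiles of 3.50 and 4.07, and 3.46 in B6, with quartiles of 3.33 and 3.65. It was 3.69 in B1, 3.04 in B2 and 3.02 in B3 over the regions called there, so the median in B1 was above that in B6. Even the highest fold was 6.93 in B4 and 4.64 in B6. By comparison, the 11020 regions strong in all 5 libraries had median folds of 5.59 (B1), 4.55 (B2) and 4.47 (B3) in the controls, and of 4.63 (B4) and 4.40 (B6) with C220. The median −log10 p at the gained regions was 11.4 in B1, 8.19 in B2 and 8.07 in B3, whereas B4 had 7.0 and B6 had 8.50, so it was highest in a control library, lowest in a C220 library and in no fixed order between the groups. At the regions strong in all 5 libraries it was 10.8 in B4 and 13.8 in B6, and over all merged regions called there 8.32 and 9.18. The median fold over all merged regions called there was 4.08 in B4 and 3.75 in B6. In the C220 libraries the gained regions thus had lower medians than both sets on both measures. Over all peaks of a library the median −log10 p was 8.07 in B4 and 8.48 in B6. Against these the gained regions were lower in B4 and about equal in B6.

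**Figure D2:**
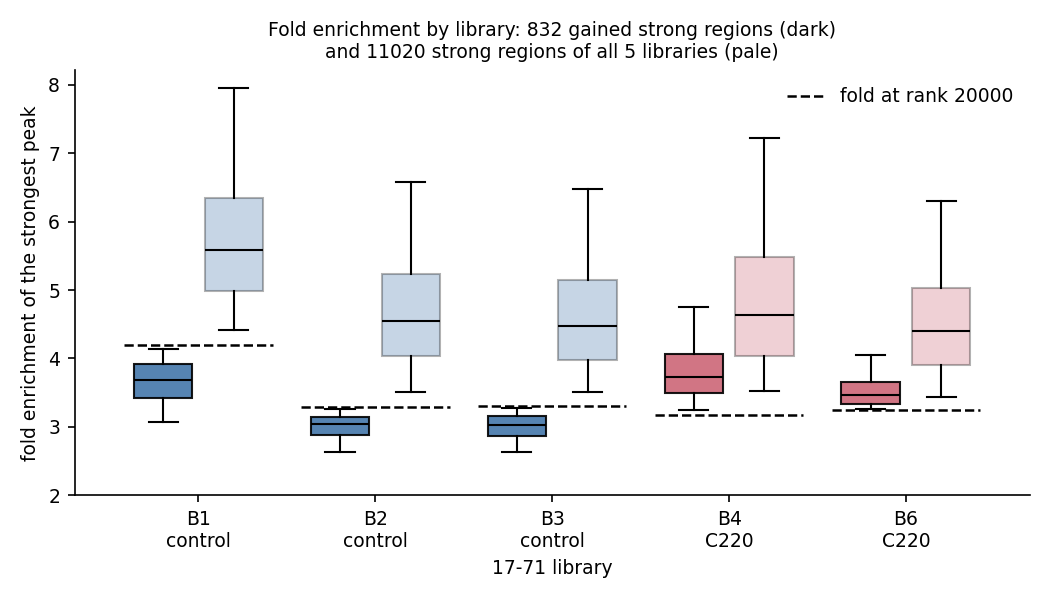
Fold enrichment of the strongest peak (vertical axis, from 2) in each 17-71 library (control in blue, C220 in red) over the gained strong regions called in that library (dark) and the regions strong in all 5 libraries (pale). Boxes span the quartiles with the median as a line, whiskers run from the 5th to the 95th percentile, and dashed lines mark the fold at rank 20000, 4.20 in B1 and 3.17 to 3.31 in the others, below which the rule places control peaks and above which it places C220 peaks.

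The 567 regions with a peak in all 5 libraries allow fold to be set side by side without missing calls. Fold is not scaled between libraries, so log2 fold was also centred on each library's median over the regions strong in all 5. On that scale the mean of C220 minus the mean of control had a median of 0.29 over the 567 regions, with quartiles of 0.21 and 0.38 and a maximum of 0.82, against 0.05 over the 16840 merged regions called in all 5 libraries. Both C220 libraries were above all 3 control libraries at 521 regions (91.9%), where the share over all such regions was 21.8%. On the fold as deposited the same was true of 160 regions (28.2%), against 3.89% of all such regions. The rule used these values, so neither share is evidence of a change. The gap between the shares is the effect of centring.

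Peak width differed between the groups at these sites. The gained regions had a median width of 918 bp, with quartiles of 682 and 1473 bp and a range of 319 to 7092 bp. The median was 1002 bp for the lost regions, 1256 bp for those strong in all 5 libraries and 1036 bp for all merged regions. These sets join kept peaks of different numbers of libraries, so their widths differ in part by construction. At least 2000 bp were spanned by 108 gained regions (13.0%), by 2.63% of the lost regions and by 8.36% of all merged regions. The peaks called there had median widths of 1080 bp in B1, 1126 bp in B2 and 1346 bp in B3, but of 654 bp in B4 and 830 bp in B6. At the regions strong in all 5 libraries the widths were 1076, 1061 and 1067 bp in the control libraries and 780 and 965 bp in B4 and B6, so the gap between the groups was wider at the gained regions.

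Of the 567 regions called in all 5 libraries, 304 (53.6%) had control peaks that were all wider than both C220 peaks, where the share over all such regions was 44.5%. The mean control peak was at least 2 times as wide as the mean C220 peak at 113 regions (19.9%), against 5.77% of all such regions. At those 113 regions fold was higher in the C220 libraries by a median of 0.38 on the centred log2 scale. Yet fold multiplied by width, a measure of the summed enrichment over the peak, had a median difference of −0.80, C220 minus control. In none of the 113 did both C220 libraries exceed all control libraries on that measure, and in 63 both were below. Over all regions called in all 5 libraries these shares were 21.2% and 14.5%. Width is a factor of the measure, so a split by width shapes such counts. The shares over all regions with the same width ratio were not computed. At the other 454 regions the median was 0.28 for fold and 0.22 for fold times width.

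Over all 567 regions, fold times width placed both C220 libraries above all control libraries at 162 (28.6%), where the share over all regions called in all 5 libraries was 21.2%. It placed both below at 71 (12.5%), where that share was 14.5%. The rule chose the regions on fold, and a wide control peak by itself lowers fold times width in C220, so the counts by the 2 measures are a description and neither is evidence of a change. Fold is averaged over the peak, so a choice of regions on fold can bear on width as well. Whether the difference in call width came from that choice, the chromatin, the depth or the caller was not tested.

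**Figure D3:**
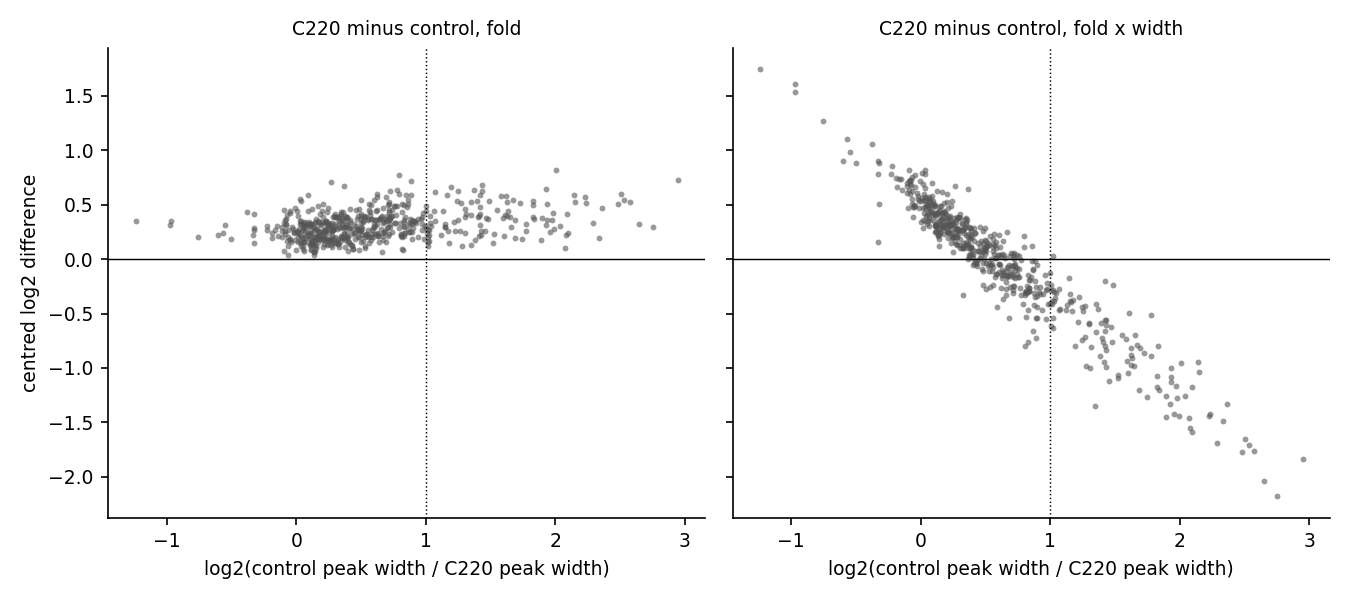
Centred log2 difference, C220 minus control, in fold (left) and in fold times width (right) against the log2 ratio of control to C220 peak width, for the 567 gained strong regions with a peak in all 5 libraries of 17-71, 1 point a region. Solid lines mark no difference and dotted lines control peaks 2 times as wide. Fold lay above 0 at every width, which the choice of the regions on fold favours by construction. Fold times width fell with the width ratio, which is part of its own construction.

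The strongest single regions, ranked by the smaller of their B4 and B6 folds, were sites at which both C220 libraries were clearly above the rank limit. The rule and this ranking use the same folds. An order of C220 above control at these sites is thus favoured in advance and is no evidence of a change. The first was 463 bp on chromosome 4 (12946553 to 12947015), with a fold of 5.40 in B4 and 4.50 in B6. Control folds there were 3.88 in B1, 3.29 in B2 and 2.88 in B3, so the groups did not overlap, and no CLBL-1 library had a peak. B2 missed the rank limit narrowly at this site, at rank 20148.

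On chromosome 33 (30905737 to 30906559) no control library of 17-71 had a peak of any rank. The fold was 5.98 in B4 and 4.49 in B6, with a −log10 p of 13.6 and 9.59, and of the CLBL-1 libraries only the control C2 had a peak, with a fold of 4.07. These were the largest folds of any region without a control peak.

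A region on chromosome 6 (20027558 to 20028689) had a fold of 4.46 in both C220 libraries and of 3.98, 3.04 and 2.90 in B1, B2 and B3. On chromosome 15 (8524842 to 8525244) the folds were 4.51 in B4 and 4.28 in B6 against 3.11 in B2 and 3.1 in B3, with no peak in B1. A region on chromosome 34 (1811272 to 1811818) had 4.18 in B4 and 4.42 in B6 against 3.75, 2.57 and 2.95 in B1, B2 and B3. In these 3 regions the C220 folds lay above all control folds, and no CLBL-1 library had a peak. On the fold as deposited that order held at 28.2% of the gained regions called in all 5 libraries, against 3.89% of all such regions.

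The region on chromosome 21 (25660533 to 25661041) was narrow in the C220 libraries and wide in the controls. Its fold was 5.05 in B4 and 4.20 in B6 against 4.02, 3.27 and 2.98 in B1, B2 and B3. The peaks were 509 and 467 bp wide in B4 and B6 but 2624, 2908 and 2934 bp wide in B1, B2 and B3. The −log10 p was 11.8 in B4 and 12.6 in B6 against 18.2, 11.6 and 8.635 in B1, B2 and B3, so on that measure the groups overlapped through B1.

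On chromosome 7 (9841673 to 9842498) the folds were 4.23 in B4 and 4.15 in B6 against 3.40, 3.17 and 2.82 in B1, B2 and B3. In CLBL-1 the folds, which are not scaled between libraries, were 5.30 and 4.98 in its control libraries and 5.23, 5.06 and 4.76 in its C220 libraries, where the groups overlapped. The eighth region, on chromosome 11 (11334691 to 11335379), had no control peak in 17-71 and none in CLBL-1, with a fold of 4.13 in B4 and 4.25 in B6.

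**Figure D4:**
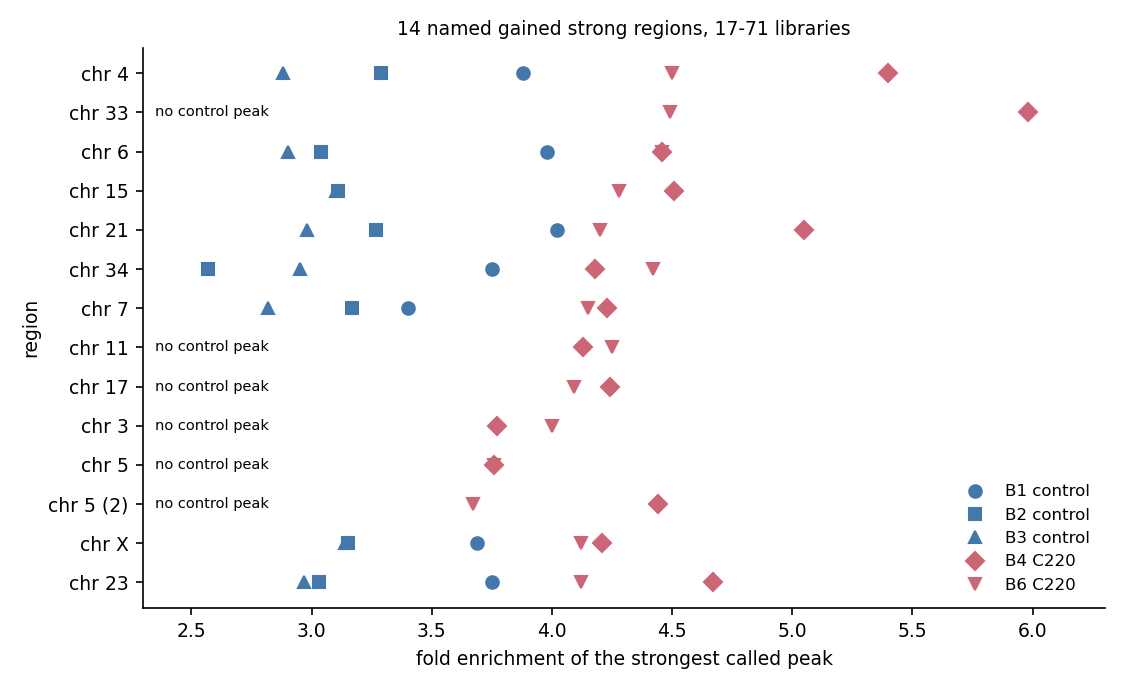
Fold enrichment of the strongest called peak (horizontal axis) in each 17-71 library at 14 named gained strong regions, labelled by chromosome (vertical axis), with control libraries in blue and C220 libraries in red. The second region on chromosome 5 is marked (2), and rows without blue points had no control peak. In the rows with control points both C220 points lie to the right of them all. The rule and the choice of rows by C220 fold favour that order in advance.

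At the 37 regions without any control peak the fold ranged from 3.25 to 5.98 in B4, with a median of 3.69, and from 3.24 to 4.49 in B6, with a median of 3.47. The median −log10 p was 5.73 in B4 and 6.42 in B6, where the caller's own cutoff was 5, and at none of the 37 did both libraries reach 10. The −log10 p was above 10 in B4 at the region on chromosome 33, at 13.6, and in B6 at a region on chromosome 17 (400725 to 402635), at 10.2. Of the 37 regions, 33 were below the members' median in both libraries. No CLBL-1 library had a peak at 28 of them (75.7%, against 48.1% of all merged regions), all 5 had one at 4 (10.8% against 37.6%), and the other 5 had a peak in some. At least 1 CLBL-1 library had a peak at 24.3% of the 37. That share was 37.5%, 26.4% and 61.7% at gained regions with a peak in 1, 2 and 3 control libraries, so a low share was not particular to the 37. The share over all merged regions without a control peak was not computed. After the regions on chromosomes 33 and 11, the next by fold were on chromosome 17 (400725 to 402635), with 4.24 in B4 and 4.09 in B6, and on chromosome 3 (81357765 to 81358359), with 3.77 and 4.00. Then came a pair on chromosome 5, at 6434497 to 6435037 with 3.76 in both libraries and at 25271149 to 25271562 with 4.44 and 3.67.

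The median confidence of the C220 calls was higher where more control libraries also had the site. The median −log10 p in B4 was 5.73 at regions with a peak in no control library, 5.81 with 1, 6.14 with 2 and 7.86 with 3, and in B6 it was 6.42, 6.79, 7.0 and 9.75. The median fold hardly differed between these classes, from 3.66 to 3.78 in B4 and from 3.44 to 3.48 in B6.

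Close to the rank limit the choice of members turned on small differences. Just inside it were regions on chromosome 13 (8309826 to 8311572), whose B4 peak had rank 19994, on chromosome 33 (1321602 to 1322350), whose B6 peak had rank 19980, and on chromosome 34 (19150165 to 19150916), whose B4 peak had rank 19980. The fold of those peaks was 3.17, 3.24 and 3.17. Just outside were a region on chromosome 3 (83704111 to 83706900), left out because its B2 peak had rank 20000, and regions on chromosomes 13 (5558537 to 5559384) and 7 (179784 to 180173), whose B4 and B6 peaks had ranks 20005 and 20007. The excluded region on chromosome 3 had a fold of 5.01 in B4 and 4.12 in B6, above most of the members.

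The set depended on where the limit was placed. With 10000 peaks per library 523 regions were gained and 418 lost, and 28 of the gained (5.35%) overlapped 28 of the 832 (3.37%). With 15000 peaks 710 were gained and 622 lost, and 231 (32.5%) of the gained overlapped 231 (27.8%). With the full lists 105 regions were gained and 3389 lost, and the 37 of them that overlapped a member are the 37 without a control peak. When 1 fold limit served for all libraries, 4.20 as in B1, 63 regions were gained and 845 lost, and only 4 of the 63 (6.35%) overlapped a member. At the lower limit of 3.17 there were 127 gained and 1904 lost, and 109 of the 127 (85.8%) overlapped 109 of the 832 (13.1%). Ranking by −log10 p gave 630 gained and 691 lost, and 242 of the 630 (38.4%) overlapped a member. A minimum −log10 p of 10 left 22 gained and 2346 lost, and 11 of the 22 (50.0%) overlapped 11 of the 832 (1.32%). Gained regions were thus the more numerous with 10000 and 15000 peaks per library, and lost regions with 20000, with the full lists, with either common fold limit and in both settings that used −log10 p.

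A few genes can be put beside these regions. Gene names come only from the pairs of region and gene in CanFam3.1 that the study gave for its own merged regions. That list is held in part and ordered by the study's own test on these libraries, so the genes are examples and not a fair sample. Of the 832 regions 92 overlapped a listed one, 16 of these were paired with a gene and 12 with a protein-coding gene, 9 of which have a symbol. The gene lists drawn up for PRMT enzymes, MYC partners, p53 targets, apoptosis, WNT signalling, splicing, chromatin regulators, NF-kB and B-cell, T-cell or myeloid markers need start sites of this build and were not read, so the B-cell identity of the line was not checked by its markers.

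One region (chromosome 12, 2220947 to 2221732) overlapped a listed region that spans the start of DLA-DQA1. This gene encodes an MHC class II chain with which B cells present peptides to helper T cells. The fold of the gained region was 4.28 in B4 and 3.42 in B6 against 3.1, 2.85 and 2.74 in B1, B2 and B3. The C220 peaks were 403 and 773 bp wide, whereas the control peaks were 3252, 3226 and 3387 bp wide with higher −log10 p values of 14.0, 11.5 and 11.2 against 9.50 and 8.11. All 5 CLBL-1 libraries had a peak there, with folds of 4.37 and 4.09 in control and 4.19, 3.79 and 4.07 in C220 libraries, and those groups overlapped.

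Members also overlapped listed regions that span a gene start at SLC9A9, SP110, ARRDC3 and C7H1orf43. SLC9A9 is a sodium/proton exchanger of endosomes, SP110 an interferon-inducible nuclear body protein and ARRDC3 an arrestin-domain protein. At ARRDC3 the fold was 4.61 in B4 and 3.26 in B6 against 3.11, 2.91 and 3.18 in the controls, with peaks of 977 and 2299 bp against 3427, 3458 and 3403 bp. At SP110 it was 3.47 and 3.71 against 3.18, 2.58 and 3.23, with peaks of 485 and 728 bp against 1743, 2523 and 2245 bp. In both the C220 folds were above all control folds and the control peaks were wider. Such an order of the deposited folds held at 28.2% of the gained regions called in all 5 libraries, against 3.89% of all such regions. Control peaks that were all wider were found at 53.6%, against 44.5%. The rule used the folds.

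At SLC9A9 the folds were 4.00 in B4 and 3.31 in B6 against 3.33, 2.91 and 2.84, so B6 was below B1 on the fold as deposited. At C7H1orf43 they were 4.18 and 3.26 against 4.18, 3.18 and 2.72, and the groups overlapped through B1, also on the centred scale. These 4 sites had a peak in every CLBL-1 library.

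The positions upstream of or inside a gene given next are those of the listed regions that members overlapped. Upstream of TOP2B, which encodes DNA topoisomerase II beta, the fold was 3.97 in B4 and 3.99 in B6 against 4.07, 3.25 and 3.05. Upstream of AANAT, the enzyme that sets the rate of melatonin synthesis, it was 3.87 and 4.12 against 3.89, 2.95 and 3.06. Inside B4GALT6, a galactosyltransferase of glycolipid synthesis, it was 3.96 and 3.48 against 3.61, 2.77 and 3.27. B1 passed at least 1 of the C220 libraries at each of these 3 genes on the fold as deposited. On the centred log2 scale that order turned, and both C220 libraries were above all 3 controls at SLC9A9, TOP2B, AANAT and B4GALT6. On that scale the same held at 91.9% of the gained regions called in all 5 libraries, against 21.8% of all such regions. The rule used these values, so it is no evidence of a change at these genes. Upstream of SPCS3, a subunit of the signal peptidase complex, the fold was 4.02 and 3.27 with a peak of 3.75 in B1 alone among the controls.

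CLBL-1 gives measurements that the rule did not use. A peak was present at 44.6% and 43.5% of the 832 regions in the control libraries C2 and C3, and at 46.5%, 48.1% and 42.6% in the treated libraries (C4, C5, C6). The shares over all merged strong regions of 17-71 were 43.9%, 43.4%, 46.5%, 46.6% and 42.7% in the same order. At least 1 CLBL-1 library had a peak at 429 regions (51.6%, against 51.9% of all merged regions) and all 5 at 331 (39.8%, against 37.6%). The gained regions were thus called open in CLBL-1 about as often as strong regions of 17-71 in general. Those strong in all 5 libraries of 17-71 were called in all of CLBL-1 at 56.1%, and the lost regions at 24.6%.

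Among the gained regions this share was highest where all 3 control libraries of 17-71 had the site, with no steady order below that. All 5 CLBL-1 libraries had a peak at 50.1% of the 567 regions called in all 3 control libraries of 17-71, but at 17.1%, 21.6% and 10.8% of those called in 2, 1 and none. The same split was not made for all merged regions. A CLBL-1 peak in all 3 C220 libraries and in no control library occurred at 2 of the 832 regions (0.240%), where the share over all merged regions was 0.555%. The opposite pattern occurred at 3 regions (0.361%), where that share was 0.19%.

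The response to C220 in CLBL-1 was tested on log2 fold with limma over the 18371 CLBL-1 regions called in all 5 of its libraries. A single region passed a Benjamini-Hochberg adjusted p of 0.05 in favour of C220, which is 0.00544% of those tested, and none, or 0%, in favour of control, with 1060 regions under an unadjusted p of 0.05. The single call was lost (0 calls) when C2, C3 or C5 was left out. Of these regions 337 overlapped a gained region of 17-71, and they covered 336 of the 832. The other gained regions were not tested, and a region without a peak in any of the CLBL-1 libraries could not enter the test. None of the 337 passed in either direction, the smallest limma adjusted p being 0.818, and 16 (4.75%) had an unadjusted p under 0.05 against 5.77% of all regions. The median log2 difference was −0.005, with quartiles of −0.075 and 0.077, against −0.004 over all regions, and 163 of 337 (48.4%) were positive. The median standard error of 0.107 on the log2 scale bounds what 2 control and 3 C220 libraries could show.

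**Figure D5:**
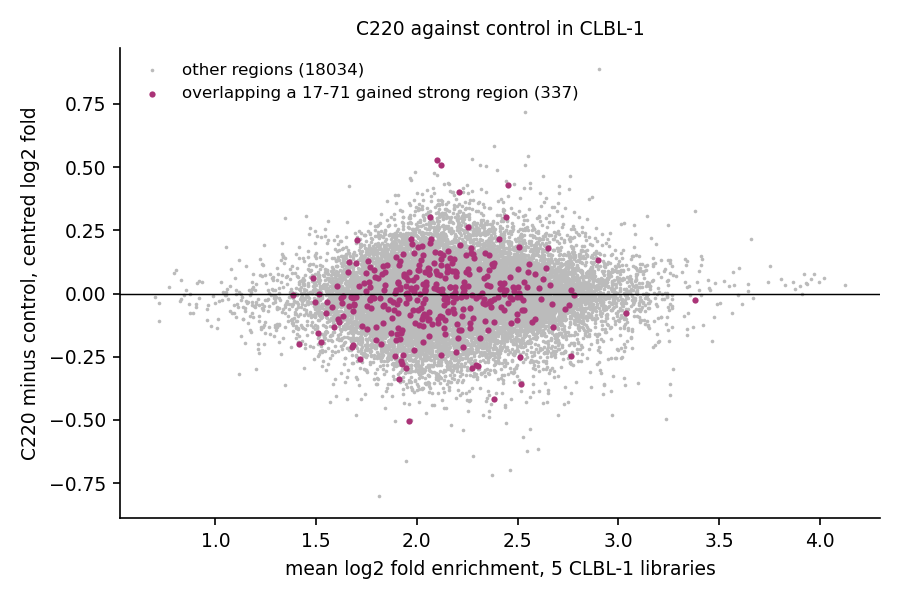
C220 minus control in centred log2 fold (vertical axis) against mean log2 fold over the 5 CLBL-1 libraries (horizontal axis) for the 18371 CLBL-1 regions tested, with the 337 that overlap a gained strong region of 17-71 in purple, 1 point a region. The purple points spread on both sides of 0 with a median of −0.005.

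Single sites showed the same spread. The CLBL-1 region over the member on chromosome 21 described above had folds of 4.38 in C2 and 3.49 in C3 against 5.03, 4.99 and 5.52 in C4, C5 and C6. The C220 values lay above both controls, with a centred log2 difference of 0.40 ± 0.11 (SE, 2 control and 3 C220 libraries), but the limma adjusted p was 0.82. Its CLBL-1 peaks were 718 and 544 bp wide in C4 and C5 against 2149, 2257 and 2098 bp in C2, C3 and C6. The smallest unadjusted p among members belonged to a region on chromosome 11 (57318008 to 57319492), with a difference of 0.51 ± 0.11, and the next to one on chromosome 27 (17427705 to 17429892), with −0.50 ± 0.12, both at a limma adjusted p of 0.818. Among the other named regions tested, the differences were −0.18 ± 0.13 on chromosome 13 and −0.14 ± 0.12 on chromosome 34, both just inside the rank limit, −0.04 ± 0.10 on chromosome 7, −0.07 ± 0.09 on X (35050228 to 35051377) and −0.01 ± 0.11 on chromosome 23 (19828986 to 19830046). None passed the test. In 17-71 the C220 folds had been 4.21 and 4.12 on X and 4.67 and 4.12 on chromosome 23. Each was above all control folds, on values that the rule used.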

How the data were processed

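ATAC-seq peak lists of 10 libraries were used. The authors mapped the reads with Bowtie2 2.2.4 to CanFam3.1 and called broad peaks with MACS2 in each library separately, at a p cutoff of 10 to the power of −5. The deposited lists give each peak's fold enrichment (a ratio, not scaled between libraries) and its −log10 p. For the MACS2 version and duplicate filtering, the sources used here state nothing. The study left out libraries as outliers without naming them. Libraries were grouped by their labels, and nothing ties libraries across groups. The members, gene lists and tests were chosen with earlier results of these data known.

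A library counted as having a peak from 1 bp of overlap with a region, and the peak of largest fold gave its value. Coordinates are 1-based. The regions named were the 8 of largest weaker C220 fold, the 6, 4 and 4 likewise among regions with no control peak, with a peak in every CLBL-1 library and in no CLBL-1 library, and the 3 nearest the limit on each side. CLBL-1 was tested with limma 3.58.1 (trend, robust, R 4.3.3) on log2 fold centred on library medians, Benjamini-Hochberg threshold 0.05. Whether libraries are separate cultures is given only in the study's words on replicate experiments, so p-values measure the spread between libraries. The merging and the limma test were tested on simulated data, and the merged intervals were identical to those of bedtools 2.31.1. Python 3.11.15, numpy 2.4.6 and pandas 2.3.3 were used. No CanFam3.1 sequence or gene models were used, so base composition, motifs and distances to genes were not analysed here. The study's own test columns were not used.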

Additional observations from a re-analysis of the deposited data

How the results depend on the processing

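The 832 gained regions became 523 with lists of 10000 peaks, 105 with full lists and 22 with peaks of a −log10 p of at least 10. With 1 fold limit for all libraries, chosen after seeing the data, there were 63 at 4.20 and 127 at 3.17. Lists of 15000 peaks gave 710, ranking by −log10 p gave 630, of which 242 overlapped a member, and the 2 other merging distances gave 832 and 831. Without each library in turn the count ran from 1094 (without B3) to 3604 (without B6), with 1189 without B1, 1251 without B2 and 2341 without B4, as fewer libraries then had to meet the rule. Of the 795 members with a control peak, 447 had one with a −log10 p of at least 10, and leaving out a control library gave 724 to 790. The 429 members with a CLBL-1 peak stayed between 386 and 427 under 7 other settings. In CLBL-1 the single called region was lost without C2, C3 or C5 (0 to 1 calls over the libraries left out in turn), and members had 0 calls under all 9 alternatives of the limma test. The median width of 918 bp is by construction that of the union of the C220 peaks, and other merging distances were not run for it. No paired analysis was possible because the labels number the libraries B1 to B6 and C2 to C6 with no number shared between the groups of a line. Windows for motifs and base composition and distances to gene starts were not run, as no CanFam3.1 genome or gene models were used here. Depth is unknown, so absence of a call is not absence of accessibility.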

Other observations

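The gained regions were spread over all 39 chromosomes with peaks, at unequal shares. On chromosome 34, 27 of 524 strong regions were gained (5.15%) and 10 were lost (1.91%). Chromosomes 13, 31, 23 and 21 followed with 4.48%, 4.42%, 4.34% and 4.33% gained. Their lost shares were 1.4%, 1.5%, 2.8% and 2.2%, against 2.77% of all merged regions. The lowest shares were on chromosome 32, with 4 gained (1.23%) and 19 lost (5.85%) of 325, on chromosome 26, with 8 gained (1.41%) and 22 lost (3.87%) of 568, and on chromosome 9, with 18 gained (1.51%) and 45 lost (3.76%) of 1196. The X chromosome held 26 gained and 24 lost of 1072 regions.

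Within 50 kb of another member were 61 of the 832 regions, in 29 clusters. Of the 875 lost regions 86 lay that close to another lost region, in 41 clusters. The share over all merged regions was not computed. The gained cluster with most members was a run of 4 regions over 68283 bp on X (105532408 to 105600690), and 3 lay within 14096 bp on chromosome 15 (38420776 to 38434871). On chromosomes 6 and 11, 2 members in all start within the first 10000 bp of the chromosome.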
